A study of Mus musculus with 6 samples.

Results

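NF-κB is a family of dimeric transcription factors, and the 10 genes described here encode its 5 subunits (Nfkb1, Rela, Rel, Nfkb2 and Relb), its cytoplasmic inhibitors (Nfkbia, Nfkbib and Nfkbie) and a pair of further regulators (Tnfaip3 and Bcl3). They were chosen by gene name, for their roles and not by a threshold on any measured value, but with earlier results of these data known. All 10 of 10 were found, once each, among the 34745 genes of the table, and all 10 passed the filter on low counts along with 15539 genes in all. Messenger levels were read by RNA sequencing of 6 subcutaneous tumours, of which 3 came from C57BL/6J mice fed a high cholesterol diet (HCD) and 3 from C57BL/6J mice fed a normal diet (ND). Mice of both diets had been injected in the right flank with B16F10 cells, a line derived from a mouse melanoma. The tumours are numbered 1 to 3 within a diet, with no statement of how they were separated as replicates, so the errors below measure the spread between these samples.

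Library totals ran from 20351637 to 26228074 counts, and the 10 members had between 403 and 4738 counts in each library. The label of the tumours was set against marker genes. Of 8 melanocyte genes, 4 (Tyr, Dct, Mlana and Oca2) had no count in any library, and the summed level of the list ran from 5.80 to 11.1 CPM (a gene's counts over the library total, at the usual CPM scale and adjusted by TMM factors) in HCD tumours and from 4.198 to 7.41 CPM in ND tumours. The summed level of 10 hepatocyte genes ran from 6751 to 8921 CPM in HCD tumours and from 7073 to 8506 CPM in ND tumours. This sum came mostly from Alb, at 3611 CPM averaged over the 6 libraries, Krt18 (1723), Krt8 (1043) and Afp (633). Ttr averaged 10.1 CPM and Serpina1a 0.128 CPM. The melanocyte sum came mostly from Mitf, at 6.10 CPM. With most melanocyte genes absent or low and Alb and Afp high, the markers go against the label. The tumours are therefore called tumours labelled as B16F10. The summed levels of all 9 marker lists examined (T cell, B cell, macrophage, dendritic cell, neutrophil, endothelial, fibroblast, hepatocyte and melanocyte) overlapped between the diets. In several of these lists, however, most genes had fold changes of 1 sign, none with an edgeR adjusted p under 0.05. Over all tested genes 53.0% had positive and 47.0% negative fold changes. Genes of a list were measured in the same 6 libraries, so the counts that follow are not independent results. Positive fold changes were found for 11 of 11 tested T cell markers (median log2 fold change 0.91), 7 of 7 B cell markers (1.23), 8 of 8 dendritic cell markers (0.32), 8 of 8 endothelial markers (0.46) and 8 of 10 macrophage markers (0.38). Negative ones were found for 6 of 8 neutrophil markers (-0.58), 6 of 8 fibroblast markers (-0.08) and 5 of 9 tested hepatocyte markers (-0.05). The 2 tested melanocyte markers had positive fold changes (0.25). The summed B cell level was 21.2, 13.2 and 3.21 CPM in HCD 1 to HCD 3, against 3.30, 7.53 and 6.12 CPM in ND 1 to ND 3, and the summed endothelial level 208, 388 and 189 CPM in the HCD libraries, against 172, 190.1 and 217 CPM in the ND libraries. The part of these cell types in the levels of the members was not tested. All values come from bulk tissue, in which fewer cells of a type and less RNA per cell cannot be told apart.

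In the canonical arm of the pathway, receptors such as those for TNF and interleukin 1 activate a kinase complex that marks the inhibitors of κB for degradation, which lets dimers of RelA, c-Rel and p50 enter the nucleus. In the non-canonical arm, a smaller set of TNF family receptors stabilises the kinase NIK, and the precursor protein made from Nfkb2 is cut to p52, which pairs with RelB. Several members are themselves known targets of NF-κB, so that the pathway feeds back on its own inhibitors and subunits. In tumours these genes are used by cancer cells and by infiltrating leucocytes, and c-Rel and RelB are best known from lymphocytes and dendritic cells.

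The messages of the non-canonical subunits lay lower in HCD tumours, and those of the canonical subunits were nearer to each other between the diets. Nfkb2 had a level of 0.814 times and Relb of 0.817 times that of ND tumours, against 0.913 times for Rela and 0.966 times for Nfkb1, while Rel lay higher, at 1.16 times. No member passed edgeR's quasi-likelihood test with Benjamini-Hochberg adjustment over all genes, in which 0% of the 15539 genes were called, and neither DESeq2 nor limma-voom called a member. At an unadjusted p under 0.05, 3 of the 10 members lay lower and 0 higher in HCD tumours, where 3.48% of all tested genes lay lower and 1.81% higher by that criterion. The 3 were Nfkb2, Relb and Rela. For the same 3 of 10 members all HCD libraries lay below all ND libraries, which held for 6.36% of tested genes, and for 0 members all HCD libraries lay above, which held for 4.75%. Fold changes were negative for 8 of 10 members and positive for 2, against 47.0% and 53.0% of tested genes. The median log2 fold change was -0.19 over the members and 0.01 over all tested genes. Since the members were named with the results of this contrast known, these counts are a description and no more is read from them.

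**Figure D1:**
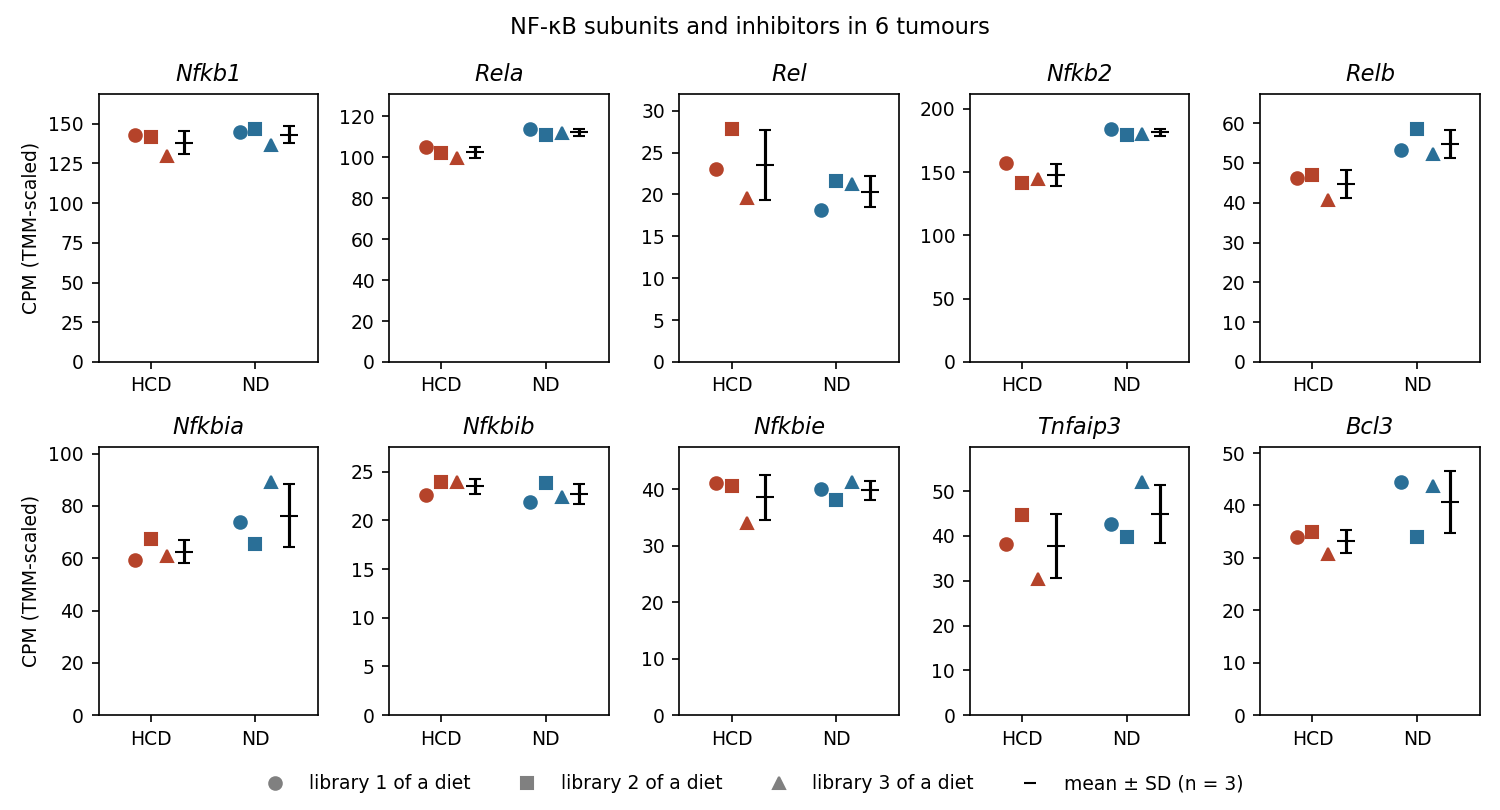
Scaled level (CPM, axis from 0) of the 10 members in each of 6 tumours, HCD left and ND right in each panel; symbols mark the 3 libraries of a diet, black bars the mean ± SD (n = 3). All 3 HCD points lie below all 3 ND points for Nfkb2, Relb and Rela, and the diets overlap for the other 7 genes.

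Nfkb2 encodes the p100 precursor of p52, which also acts as an inhibitor of RelB until it is cut (ENSMUSG00000025225, mm10 chromosome 19, 46304320 to 46312385, plus strand). Its level was 157, 141 and 144 CPM in HCD 1 to HCD 3, against 184, 179 and 180.4 CPM in ND 1 to ND 3. The highest HCD library lay well under the lowest ND library, and the ND libraries were close to each other. The means were 148 ± 8.41 CPM in HCD and 181 ± 2.74 CPM in ND tumours (SD, n = 3 each). On the log2 scale HCD over ND was -0.30 ± 0.06 SE (95% interval -0.44 to -0.15), with an edgeR p of 0.00203 and an adjusted p of 0.839. Ordered by that p, the gene stood at place 13 of 15539. The DESeq2 adjusted p was 0.115, the smallest over 17 alternatives, in which the adjusted p reached up to 1.00. Without 1 library in turn the log2 fold change ran from -0.35 (without HCD 1) to -0.26 (without HCD 2). In the GENCODE annotation Nfkb2 shares 830 exon bases with genes of the opposite strand. Of these, 531 are shared with AC114539.1, which is absent from the deposited values, and 299 with Psd. Whether the counting used strand is not stated. Psd had 18.4 to 25.1 CPM over the 6 libraries.

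Relb encodes RelB, the transactivating partner of p52 (ENSMUSG00000002983, chromosome 7, 19606217 to 19629438, minus strand). Its level was 46.2, 47.1 and 40.6 CPM in the 3 HCD libraries, against 53.2, 58.7 and 52.2 CPM in the 3 ND libraries. As with Nfkb2, the diets did not overlap. HCD 3 was the lowest library and ND 2 the highest. The fitted log2 fold change was -0.29 ± 0.09 SE (95% interval -0.50 to -0.08, edgeR adjusted p 0.839). It was -0.23 without HCD 3 and -0.33 without HCD 2. The summed level of 8 dendritic cell markers, all with counts, was 130, 179 and 102 CPM in HCD 1 to HCD 3, against 58.7, 135 and 95.2 CPM in ND 1 to ND 3. Its part in the level of Relb was not tested.

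Rela encodes RelA, the p65 subunit that carries most canonical transactivation (ENSMUSG00000024927, chromosome 19, 5637483 to 5648130, plus strand). It had 105, 102 and 99.8 CPM in HCD 1 to HCD 3, against 114, 111 and 112 CPM in ND 1 to ND 3. The groups did not overlap, with a gap smaller than that of Nfkb2. A log2 fold change of -0.13 ± 0.05 SE was fitted (95% interval -0.26 to -0.00559, edgeR adjusted p 0.839).

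Nfkb1 encodes the p105 precursor of p50, the usual partner of RelA (ENSMUSG00000028163, chromosome 3, 135584655 to 135691547, minus strand). It had 143, 142 and 130 CPM in HCD 1 to HCD 3, against 145, 147 and 137 CPM in ND 1 to ND 3. The diets overlapped, with HCD 3 lowest. The 95% interval of the log2 fold change, -0.05, reached from -0.20 to 0.10 (edgeR adjusted p 0.888), and the value was -0.00861 without HCD 3.

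Rel, which encodes the lymphoid subunit c-Rel, ran in the other direction (ENSMUSG00000020275, chromosome 11, 23736847 to 23770970, minus strand). It had 23.0, 27.9 and 19.6 CPM in HCD 1 to HCD 3, against 18.2, 21.6 and 21.3 CPM in ND 1 to ND 3. HCD 2 was the highest and ND 1 the lowest library, and HCD 3 lay inside the ND range. Its log2 fold change was 0.21 ± 0.15 SE (95% interval -0.14 to 0.56, edgeR adjusted p 0.842), 0.07 without HCD 2 and 0.32 without HCD 3. The summed level of 11 T cell markers, all with counts, was 114, 166 and 69.2 CPM in HCD 1 to HCD 3, against 22.0, 82.5 and 95.8 CPM in ND 1 to ND 3. The sum over 10 macrophage markers was 950, 1597 and 732 CPM in the HCD libraries, against 491, 1006 and 872 CPM in the ND libraries. Both sums were highest in HCD 2 and lowest in ND 1, as Rel was. The dendritic cell, endothelial and melanocyte sums had the same highest and lowest libraries, so this order was not particular to T cells and macrophages. The part of these cell types in the level of Rel was not tested.

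**Figure D2:**
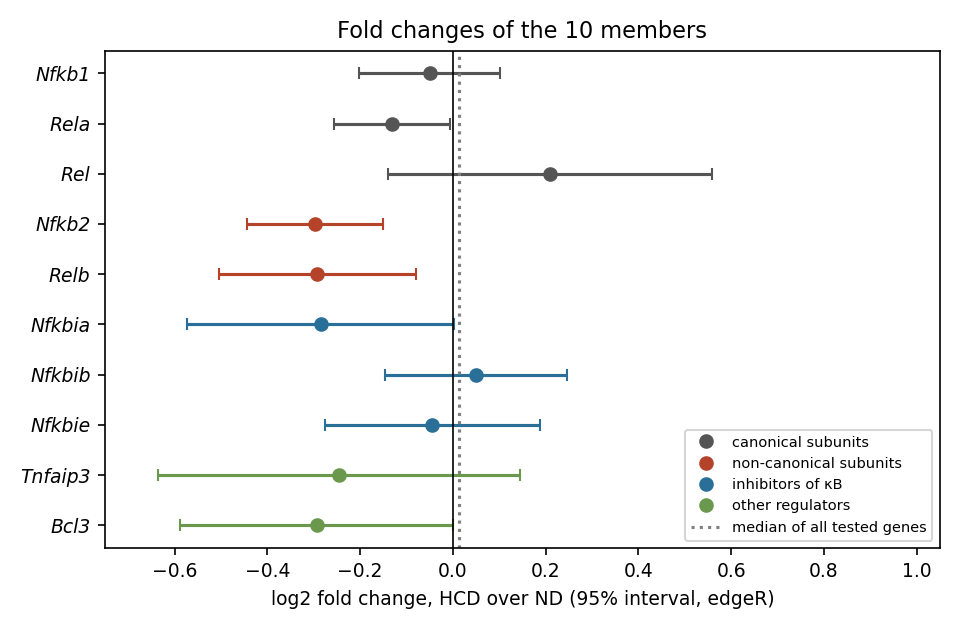
Fitted log2 fold change (HCD over ND, horizontal axis) of each member with its 95% interval, coloured by role; the dotted line is the median of all tested genes. The intervals of Nfkb2, Relb and Rela lie below 0, and those of the other 7 members reach 0 or beyond.

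A comparison of levels between genes needs values per length, so the deposited FPKM values (values per kilobase of gene, scaled to the library total) were used. In FPKM, averaged over the 6 libraries, Nfkb2 stood highest at 48.6 ± 5.55 (SD, n = 6), followed by Nfkbia at 44.0 ± 6.86 and Rela at 39.5 ± 2.08. Nfkbia overlapped both Nfkb2 and Rela in mean ± SD, where the SD is over both diets. Nfkb2 lay above Rela in each library, at a log2 ratio of 0.15 to 0.38. Nfkbie stood apart at 16.2 ± 1.30 FPKM. Below it Bcl3 (10.2 ± 1.51), Relb (8.99 ± 1.17) and Nfkb1 (8.66 ± 0.465) overlapped in turn, and Nfkbib followed at 7.78 ± 0.360 FPKM. Tnfaip3 (2.96 ± 0.525) and Rel (2.94 ± 0.490) were lowest and overlapped. This order depended on the gene length behind the FPKM. For Nfkb1 the FPKM values imply a length of 16227 bases, while its principal transcript in GENCODE M21 has 4117 bases, and for Tnfaip3 the lengths are 13958 and 4422 bases. Per kilobase of the principal transcript, Nfkb1 came to 34.1 ± 1.83 and Relb to 22.5 ± 2.92 CPM per kilobase, without TMM factors (SD, n = 6 each), while Nfkb2, at 52.4 ± 5.98, was still highest. Tnfaip3 came to 9.34 ± 1.66 on that scale and no longer overlapped Rel, which was lowest at 2.94 ± 0.490.

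The balance of the arms was set out per library as the summed FPKM of Nfkb2 and Relb over that of Nfkb1, Rela and Rel, a ratio that no library scaling can change. Its log2 was 0.11, 0.00278 and 0.08 in HCD 1 to HCD 3, against 0.26, 0.27 and 0.26 in ND 1 to ND 3. All HCD libraries lay below all ND libraries, and the HCD libraries differed more among themselves than the ND libraries. The means were 0.07 ± 0.06 in HCD and 0.26 ± 0.00386 in ND tumours (SD, n = 3 each), and HCD minus ND was -0.20. The genes of this ratio include those named above, so the ratio is a description and carries no test. Leaving out 1 library moved the difference to between -0.22 (without HCD 1) and -0.17 (without HCD 2). With the length of the principal transcript, an alternative added after the data were seen, the log2 ratio averaged -0.15 ± 0.04 in HCD and 0.07 ± 0.00960 in ND tumours, a difference of -0.21. Which arm holds more message in HCD tumours therefore depended on the gene length used, while the difference between the diets had the same sign with both.

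As shares of the 5 subunits' summed FPKM, Nfkb2 and Relb together made 52.0%, 50.05% and 51.4% in HCD 1 to HCD 3, against 54.6%, 54.6% and 54.5% in ND 1 to ND 3. Nfkb2 alone averaged 43.1% ± 1.38 in HCD and 46.1% ± 0.482 in ND tumours. Relb alone averaged 7.99% ± 0.471 in HCD and 8.50% ± 0.536 in ND tumours, and its share overlapped between the diets. The share of Rela was 37.3% ± 0.512 in HCD against 35.5% ± 0.362 in ND tumours, so Rela held a larger share in HCD tumours although its own level was lower there. Rel made 3.12% ± 0.534 in HCD and 2.34% ± 0.234 in ND tumours (SD, n = 3 each).

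Ratios of single genes separated the diets in part. The log2 ratio of Nfkb2 to Nfkb1, the precursor genes, was 2.40, 2.26 and 2.42 in HCD 1 to HCD 3, against 2.61, 2.55 and 2.66 in ND 1 to ND 3. The diets did not overlap in this ratio. The log2 ratio of Nfkb2 to Rela was 0.26, 0.15 and 0.22 in the HCD libraries, against 0.38, 0.37 and 0.38 in the ND libraries. The HCD values of this ratio had an SD of 0.06 and the ND values an SD of 0.000462. The ratio of Relb to Rela averaged -2.23 ± 0.09 in HCD and -2.06 ± 0.10 in ND tumours on the log2 scale (SD, n = 3 each). Within the non-canonical arm the diets overlapped, with a log2 ratio of Nfkb2 to Relb of 2.43 ± 0.13 in HCD and 2.44 ± 0.10 in ND tumours (SD, n = 3 each).

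**Figure D3:**
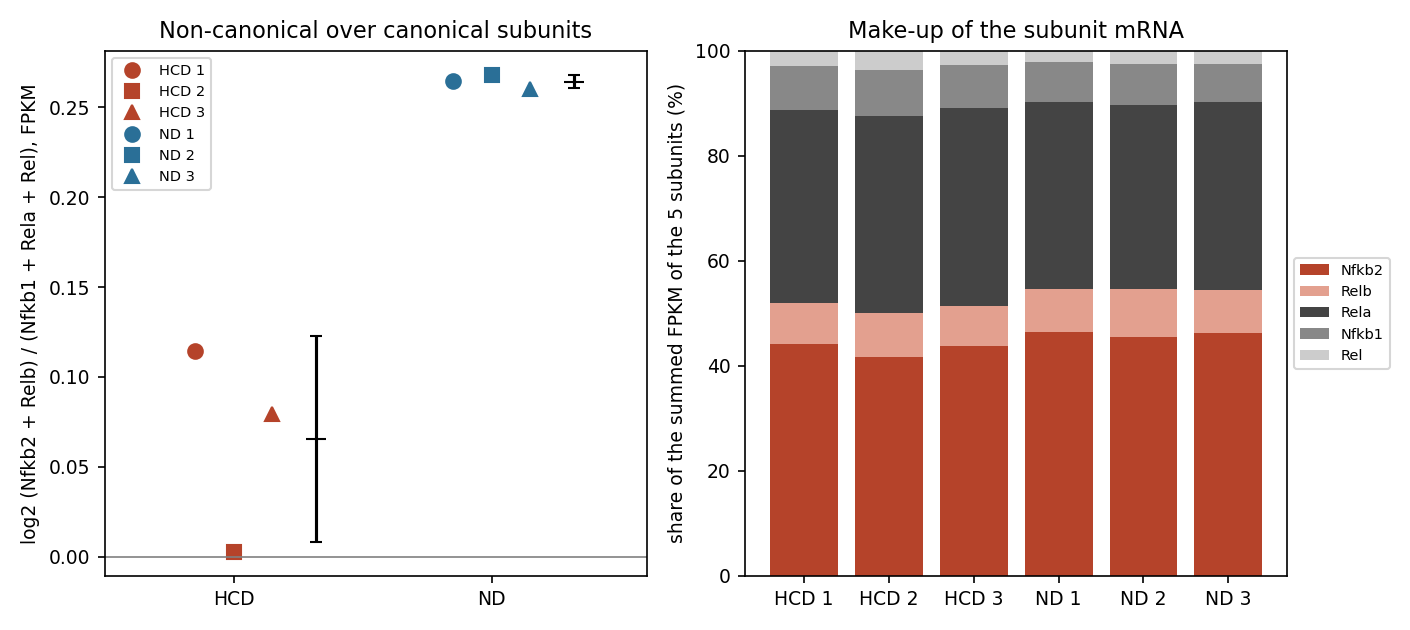
Left, log2 ratio of the summed FPKM of Nfkb2 and Relb to that of Nfkb1, Rela and Rel in each tumour, HCD left of ND, with the mean ± SD (n = 3). Right, share of each subunit in the summed FPKM of the 5 subunits (%, bars stacked to 100% per library). The HCD ratios lie between 0.00278 and 0.11 and the ND ratios between 0.26 and 0.27.

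The inhibitors of κB hold canonical dimers in the cytoplasm. Nfkbia encodes IκBα, the inhibitor that is degraded and resynthesised most quickly (ENSMUSG00000021025, chromosome 12, 55489410 to 55492647, minus strand). It had 59.4, 67.5 and 60.7 CPM in HCD 1 to HCD 3, against 74.0, 65.6 and 89.2 CPM in ND 1 to ND 3. ND 2 lay inside the HCD range and ND 3 was the highest library. Fitted over both diets, the log2 fold change was -0.29 ± 0.12 SE (95% interval -0.57 to 0.00187, edgeR adjusted p 0.839). It was -0.16 without ND 3 and -0.38 without ND 2.

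Nfkbib encodes IκBβ, an inhibitor with slower turnover (ENSMUSG00000030595, chromosome 7). It had 22.6, 24.0 and 23.9 CPM in HCD 1 to HCD 3, against 21.9, 23.8 and 22.4 CPM in ND 1 to ND 3. The diets overlapped, at a log2 fold change of 0.05 (95% interval -0.15 to 0.25, edgeR adjusted p 0.908). Nfkbib shares 42 exon bases with Sirt2 on the opposite strand, which had 36.5 to 44.6 CPM. Nfkbie, which encodes IκBε, had 41.0, 40.6 and 34.0 CPM in HCD 1 to HCD 3, against 40.0, 38.0 and 41.3 CPM in ND 1 to ND 3 (ENSMUSG00000023947, chromosome 17). HCD 3 was the low library. Its log2 fold change of -0.04 (95% interval -0.28 to 0.19, edgeR adjusted p 0.925) turned to 0.04 without HCD 3. The log2 ratio of Nfkbia to Rela in FPKM, an inhibitor set against its main client, averaged 0.07 ± 0.11 in HCD and 0.22 ± 0.22 in ND tumours (SD, n = 3 each), and the diets overlapped.

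Tnfaip3 encodes A20, a ubiquitin-editing enzyme that limits signalling upstream of the kinase complex (ENSMUSG00000019850, chromosome 10, 19000910 to 19015657, minus strand). It had 38.2, 44.7 and 30.4 CPM in HCD 1 to HCD 3, against 42.6, 39.7 and 52.1 CPM in ND 1 to ND 3. The lowest library was HCD 3 and the highest ND 3, and the diets overlapped. A log2 fold change of -0.25 ± 0.16 SE (95% interval -0.64 to 0.14, edgeR adjusted p 0.839) was fitted, and it was -0.11 without HCD 3 and -0.38 without HCD 2.

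Bcl3 encodes a nuclear member of the inhibitor family that works with p50 and p52 homodimers (ENSMUSG00000053175, chromosome 7, 19808462 to 19822770, minus strand). It had 34.0, 34.9 and 30.7 CPM in HCD 1 to HCD 3, against 44.5, 33.9 and 43.7 CPM in ND 1 to ND 3. ND 2 lay among the HCD libraries and the other ND libraries stood above. HCD over ND was -0.29 ± 0.12 SE on the log2 scale (edgeR adjusted p 0.839). Dropping ND 2 gave -0.41, and dropping ND 1 gave -0.23. The summed level of 8 neutrophil markers, all with counts, had a like split of the ND libraries, at 67.5, 78.3 and 64.5 CPM in HCD 1 to HCD 3, against 136, 78.2 and 147 CPM in ND 1 to ND 3. Nfkbia had the same order of the ND libraries as this sum. Of the 8 markers, S100a8 and S100a9 had ND 1 and ND 3 above all HCD libraries with ND 2 inside or below the HCD range, and the other 6 did not. Among those 6, Cxcr2 and Csf3r had all ND libraries above all HCD libraries, with ND 2 the lowest ND library. Cxcr2 had 7.04, 6.91 and 6.28 CPM in HCD 1 to HCD 3, against 17.1, 7.19 and 13.3 CPM in ND 1 to ND 3. Mmp8 had 1.93, 3.96 and 1.56 CPM in HCD 1 to HCD 3, against 1.97, 3.37 and 5.24 CPM in ND 1 to ND 3, and Ly6g and Ngp had positive fold changes. The part of neutrophils in the levels of Bcl3 and Nfkbia was not tested.

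**Figure D4:**
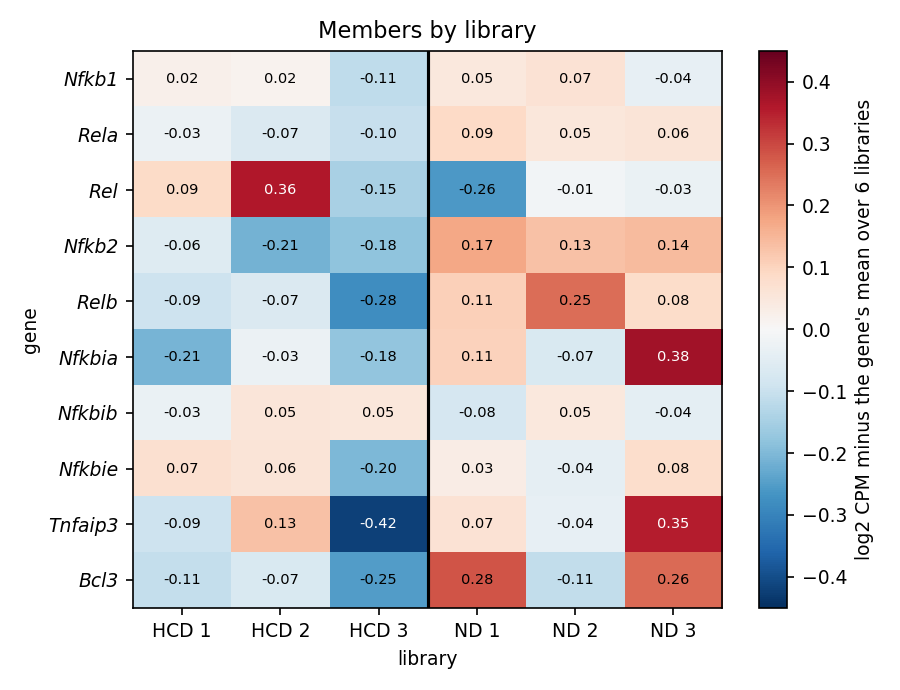
Level of each member in each library as log2 CPM, centred on its average of 6 libraries (colour scale and printed values), HCD libraries left of the line and ND libraries right. Nfkb2, Relb and Rela are negative in all HCD and positive in all ND libraries, and Rel peaks in HCD 2 (0.36). Rel, Nfkbia, Nfkbie, Tnfaip3 and Bcl3 are negative in ND 2.

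The members that are feedback targets were set beside their promoters, since κB elements near the start are the known means of this feedback. Promoter sequences of RefSeq on GRCm38.p6, each of 300 bases (250 before the start and 50 from it on), were held for 8 of the 10 members in 11 entries. Nfkb1 and Relb had no entry. The 10-base κB consensus, searched on both strands, was found in 6 of these 8 genes (Nfkb2, Rel, Nfkbia, Nfkbie, Tnfaip3 and Bcl3). It was found in 9.55% of all 27025 genes with an entry. A match in any entry of a gene counted, and some members had several entries. Since several members were already known as targets of NF-κB, no result is read from this share. The looser motif GGGNNNNNCC, which contains the consensus, was found on either strand in 7 of 8 and in 53.5% of all genes. The base composition of the windows differed, with a mean G and C content of 63.0% over the 11 member entries and 53.8% over all entries. Rela held the loose motif only, and Nfkbib neither motif. A match is a description of letters, and binding was not measured.

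The lines below show 1 match of each of these 6 genes, and a pair of matches for Nfkb2, the member with the most matches, to let the elements be compared. Each has 10 bases on both sides, is read 5′ to 3′ on the strand of the gene, and has the consensus match in capitals. Nfkb2 holds both matches in 1 window, at bases -39 to -30 and -11 to -2 from the RefSeq start, at chr19:46304688-46304717 and chr19:46304716-46304745 on the plus strand, where GENCODE annotates an exon of the gene. The match of Rel lies at bases -92 to -83 (chr11:23771042-23771071, minus strand), upstream of the gene. That of Nfkbia lies at -29 to -20 (chr12:55492657-55492686, minus strand) and that of Nfkbie at -106 to -97 (chr17:45555584-45555613, plus strand), both upstream of the gene. That of Tnfaip3 lies at -12 to -3 (chr10:19015403-19015432, minus strand), where GENCODE annotates an intron of the gene, and that of Bcl3 at 3 to 12 (chr7:19822734-19822763, minus strand), in an exon.
Nfkb2, first match: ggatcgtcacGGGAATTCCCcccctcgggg
Nfkb2, second match: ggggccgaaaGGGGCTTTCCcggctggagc
Rel: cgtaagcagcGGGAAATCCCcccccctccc
Nfkbia: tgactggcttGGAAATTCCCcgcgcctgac
Nfkbie: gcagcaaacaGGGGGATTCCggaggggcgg
Tnfaip3: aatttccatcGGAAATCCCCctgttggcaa
Bcl3: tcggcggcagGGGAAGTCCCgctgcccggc

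Among the genes with a consensus match, Nfkb2, Nfkbia, Tnfaip3 and Bcl3 had log2 fold changes between -0.30 and -0.25, Nfkbie was at -0.04 and Rel at 0.21. None of them passed the adjusted threshold, and no relation of the matches to diet was tested. The lists of the other genes of the pathway were written with earlier results of these data known. None of their tested genes passed edgeR's adjusted threshold.

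Of 28 genes of canonical signalling, from receptors to the kinase complex, 14 had positive and 14 negative fold changes and none reached an unadjusted p under 0.05 by edgeR. By that criterion 3.48% of all tested genes lay lower and 1.81% higher in HCD tumours. The median log2 fold change was -0.00795. The genes with the highest level were Map3k7, Tnfrsf1a, Irak1 and Ikbkg. Map3k7, the kinase TAK1 that activates the complex, had 195 ± 20.1 CPM in HCD and 204 ± 6.59 CPM in ND tumours. The TNF receptor gene Tnfrsf1a had 180 ± 13.5 CPM in HCD and 172 ± 7.23 CPM in ND tumours, and the interleukin 1 receptor kinase gene Irak1 had 168 ± 4.65 CPM in HCD and 165 ± 6.17 CPM in ND tumours (SD, n = 3 each). Ikbkg, the regulatory subunit NEMO, had 99.2, 217 and 171 CPM in HCD 1 to HCD 3, against 127, 164 and 121 CPM in ND 1 to ND 3. HCD 1 was the lowest and HCD 2 the highest library for this gene.

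Of 18 genes of non-canonical signalling, 16 were tested, with 9 positive and 7 negative fold changes and a median of 0.03. Of the 4 genes with the highest level, 3 encode receptors. Ltbr, the lymphotoxin β receptor, had 121 ± 10.2 CPM in HCD and 121 ± 5.02 CPM in ND tumours, a log2 fold change of 0.00117 with a 95% interval of -0.18 to 0.19. Tnfrsf12a, the TWEAK receptor, had 126 ± 12.1 CPM in HCD and 141 ± 21.02 CPM in ND tumours. Tnfrsf1b, the second TNF receptor, had 58.1 ± 18.1 CPM in HCD and 50.5 ± 7.42 CPM in ND tumours. Traf3, the adaptor that keeps NIK unstable, had 59.8 ± 5.33 CPM in HCD and 60.9 ± 5.62 CPM in ND tumours (SD, n = 3 each). Map3k14, which encodes NIK itself and was named after its values were seen, had 43.5 ± 3.91 CPM in HCD and 46.0 ± 8.31 CPM in ND tumours. The lymphotoxin α gene Lta was the member of this list with an unadjusted p under 0.05, also named after its values were seen, at 0.964, 1.21 and 0.682 CPM in HCD 1 to HCD 3, against 0.357, 0.530 and 0.582 CPM in ND 1 to ND 3. Its edgeR adjusted p was 0.839. An unadjusted p under 0.05 by edgeR was found for 1.81% of all tested genes with higher and 3.48% with lower HCD levels.

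Of 18 further genes of negative feedback, 8 had positive and 10 negative fold changes, the median was -0.03, and none reached an unadjusted p under 0.05 by edgeR. Among all tested genes 3.48% lay lower and 1.81% higher in HCD tumours by that criterion. The highest were Tax1bp1, an adaptor of A20, with 200.2 ± 5.28 CPM in HCD and 205 ± 3.31 CPM in ND tumours, and Nlrc5, better known as an activator of MHC class I genes, with 192 ± 35.6 CPM in HCD and 179 ± 35.8 CPM in ND tumours. Itch, a ubiquitin ligase that works with A20, had 173 ± 3.36 CPM in HCD and 183 ± 3.91 CPM in ND tumours, and the signalosome gene Cops5 had 100.3 ± 5.52 CPM in HCD and 96.2 ± 4.40 CPM in ND tumours (SD, n = 3 each).

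Of 36 known target genes of NF-κB, 33 were tested, with 15 positive and 18 negative fold changes (53.0% and 47.0% over all tested genes) and a median of -0.07. The list held 5 genes with lower HCD levels at an unadjusted p under 0.05 by edgeR (Il1b, Cxcl1, Cflar, Ier3 and Lcn2, of which all but Cflar were named after their values were seen) and 0 with higher ones, where 3.48% and 1.81% of all tested genes met these criteria, and each of the 5 had an adjusted p of 0.839. Cflar, a caspase inhibitor gene and the highest of the list, had 177, 219 and 197 CPM in HCD 1 to HCD 3, against 245, 213 and 244 CPM in ND 1 to ND 3. ND 2 lay inside the HCD range. The interferon regulatory factor gene Irf1 had 218 ± 35.9 CPM in HCD and 201 ± 43.8 CPM in ND tumours, and Bcl2l1, a survival gene, 148 ± 20.2 CPM in HCD and 150 ± 16.2 CPM in ND tumours (SD, n = 3 each). Junb, an AP-1 subunit gene, had 174, 183 and 181 CPM in HCD 1 to HCD 3, against 287, 169 and 243 CPM in ND 1 to ND 3.

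For 9 of the 33 targets ND 1 and ND 3 lay above all HCD libraries while ND 2 did not (Il1b, Cxcl2, Cxcl5, Cflar, Ptgs2, Ier3, Saa3, Lcn2 and Junb), the split seen in Bcl3 and Nfkbia. Over all tested genes 8.66% showed it, among them the hepatocyte genes Hnf4a and Apob and the macrophage marker Cd14. The split was noticed in the values and is given as a description. The interleukin 1β gene Il1b had 14.8, 28.2 and 23.4 CPM in HCD 1 to HCD 3, against 43.2, 23.6 and 54.9 CPM in ND 1 to ND 3. Lcn2, a lipocalin gene that neutrophils also express, had 2.46, 1.16 and 1.61 CPM in the HCD libraries, against 6.70, 1.32 and 8.93 CPM in the ND libraries. For both genes ND 2 lay inside the HCD range.

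Of 10 targets tied to the non-canonical arm, mostly lymphoid tissue chemokines, 9 were in the table and 5 were tested, 4 with positive and 1 with a negative fold change. The highest was the chemokine gene Cxcl12, at 27.8, 59.1 and 20.02 CPM in HCD 1 to HCD 3, against 34.1, 26.4 and 39.6 CPM in ND 1 to ND 3. Il23a, Madcam1 and Cr2 had means between 1.48 and 3.57 CPM over the 6 libraries, and the 95% interval of each log2 fold change spanned 0.

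**Figure D5:**
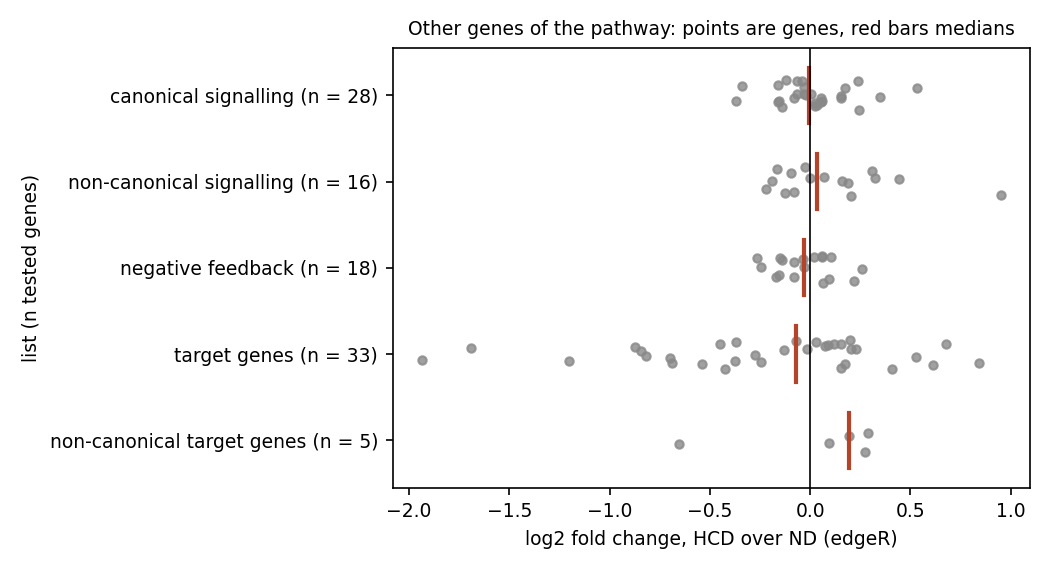
Fitted log2 fold changes (HCD over ND, horizontal axis) of the tested genes in 5 lists of the pathway; grey points are genes and red bars medians. The medians lie between -0.07 and 0.20, and the target genes spread widest.

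The genes whose profile over the 6 libraries was nearest to that of each arm were sought among 12614 named genes of at least 1 CPM, by the root mean square difference in centred log2 CPM. Nearest to the mean profile of Nfkb2 and Relb were Ap5z1, at a difference of 0.02, Amn1 at 0.03, Nrip1 at 0.04 and Zc3h4 at 0.05, where the median over the genes compared was 0.22. Ap5z1 encodes a subunit of an adaptor protein complex and Nrip1 a corepressor of nuclear receptors. Ap5z1 had 30.1, 28.8 and 26.3 CPM in HCD 1 to HCD 3, against 33.5, 35.6 and 34.0 CPM in ND 1 to ND 3. Nearest to the mean profile of Nfkb1, Rela and Rel were Slc25a21, Pi4ka, Hdac7 and Ikbkb, at differences of 0.02 to 0.03. The median over the genes compared was 0.17. That mean profile ran only from -0.12 in HCD 3 to 0.10 in HCD 2. It averaged members that differ, since Rela was negative in all HCD libraries while Rel was at 0.36 in HCD 2. Ikbkb, the kinase IKKβ that phosphorylates the inhibitors of κB, had 113, 117 and 101 CPM in HCD 1 to HCD 3, against 108, 118 and 109 CPM in ND 1 to ND 3. The diets overlapped for Ikbkb, and a nearness over 6 libraries is given as a description only.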

How the data were processed

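The submitters' processing notes name CASAVA 1.8, TopHat2 2.0.9, HTSeq, edgeR and the mm10 build, without a role. Annotation release and strand setting: not given in the sources used here. Raw read counts and FPKM values were deposited by the authors side by side, per the file headers, 1 column of each kind per tumour. Members and gene lists were chosen with earlier results of these data known. Counts were tested over all 15539 genes kept by the default filter (minimum count 10, minimum total 15) with the quasi-likelihood test of edgeR 4.0.16 in R 4.3.3 in its legacy form, with TMM factors and the diet as the only term; p-values were adjusted by Benjamini-Hochberg with a threshold of 0.05. Each SE is the fold change divided by the root of F, and intervals are at 95%. Alternatives used DESeq2 1.42.0 and limma 3.58.1. The edgeR step was tested on simulated data. Besides the members, the named genes are the 4 with the highest mean level of each list and the 4 nearest to each arm's profile; others are marked where named. Gene coordinates and transcript lengths are those of GENCODE M21. Libraries of a diet differed by more than sampling noise (chi-square per degree of freedom 17.0 to 32.0), so each counted as 1 sample.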

Additional observations from a re-analysis of the deposited data

How the results depend on the processing

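No NF-κB member was called in any of 17 alternatives to edgeR's main test (other scalings, filters, tools, FPKM in place of counts, the replicate number as a block, or 1 library left out), nor at an adjusted p threshold of 0.1. Of 170 member fold changes under these alternatives, 169 kept their direction, and Nfkbie turned to 0.0370 without HCD 3, the highest of its fits without 1 library, of which the lowest was -0.0921 without HCD 1. The number of members with a positive fold change was 2 in each alternative except without HCD 3, where it was 3, so that leaving out 1 library gave 2 to 3. Over all genes, the count of calls was 0 in the main test, 8 with the DESeq2 Wald test and 2 without ND 2, and 0 to 2 over the fits without 1 library. The log2 ratio of the arms, HCD minus ND, was -0.20. It was -0.30 with mean log2 CPM in place of summed FPKM, so that each gene weighed the same. In the other 10 alternatives it ran from -0.23 with counts in place of FPKM to -0.15 with the inhibitors added to the canonical arm. Whether the replicate numbers pair the samples is not stated. The correlation of same-numbered deviations was -0.34, 0.16 and 0.08, and that of differently numbered ones ran from -0.549 to 0.545. With 3 libraries of each diet, whose deviations sum to 0, these values can neither show nor exclude a pairing. With the replicate number as a block Nfkb2 had a log2 fold change of -0.30 and an adjusted p of 0.865, and edgeR called 0 genes.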
